A study of Homo sapiens with 4 samples.

Results

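The 9 genes described here encode the enzymes that write methyl groups onto cytosine in DNA, the factors that help copy the mark after replication, and proteins that read it: DNMT1, DNMT3A, DNMT3B, UHRF1, UHRF2, HELLS, MBD1, MBD2 and ZBTB38. They were chosen by gene name, and each name matched 1 row of the 57773 genes in each deposited table. All libraries are from A2780 cells, a long-established line from a human ovarian tumour, with genotype WT in the labels. Of the 4 libraries, 2 came from cells given wogonin, a plant flavone, at 10 ug/mL for 48 h (numbered 3 and 4), and 2 from cells given its vehicle DMSO (numbered 1 and 2), for which no time is stated. The series title links wogonin to TET2, an enzyme that oxidises methylated cytosine, which is the opposite arm to the genes described here. These libraries measured transcripts, not DNA methylation or protein.

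Most methylation in human cells lies on cytosines followed by guanine (CpG sites). DNMT3A and DNMT3B place new marks, and DNMT1 restores marks on the new strand after replication. UHRF1 binds DNA methylated on a single strand and brings DNMT1 to it, UHRF2 is its close relative, and HELLS is a helicase of the chromatin remodelling kind that gives methyltransferases access to packed DNA. MBD1 and MBD2 bind methylated CpG through a methyl-CpG-binding domain, and ZBTB38 binds it through zinc fingers. Loss of reader proteins can release genes that methylation keeps silent, and drugs that trap DNMT1 are used in the clinic against blood cancers.

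Libraries held between 11005921 and 11287570 exon reads with wogonin and between 11478731 and 11839562 with DMSO. In genes that have exons, the intron share of reads was 7.96% and 5.61% in wogonin 3 and 4, against 5.26% and 5.29% in DMSO 1 and 2, so wogonin 3 stood apart in this share. The mitochondrial share of exon reads was 1.67% and 3.03% in wogonin 3 and 4, against 1.65% and 1.45% in DMSO 1 and 2. The labels call the cells ovarian adenocarcinoma, but EPCAM, KRT8, KRT18, KRT19, CDH1, PAX8, WT1, ESR1 and MUC16 had at most 9 exon reads in any library. PTPRC, VWF and HBB, which mark blood or vessel cells, had 0 reads in all libraries, and PECAM1, a vessel marker, was not listed by that name. Of the other markers set for cells the culture should lack, COL1A2 had at most 2 reads and DCN 12 to 23, CD68 stood at 26.3 to 40.9 TPM, and COL1A1 had 76 and 82 reads in wogonin 3 and 4, against 152 and 128 in DMSO 1 and 2. The part of these in the results was not tested. In bulk RNA, fewer cells of a kind and less RNA per cell cannot be told apart. Separate cultures are not mentioned in the labels, and p-values therefore reflect the spread between these libraries alone, which may be technical.

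After wogonin, the transcripts of DNMT3B, HELLS and ZBTB38 were lower, those of DNMT3A and MBD2 were modestly higher, and those of DNMT1, UHRF1, UHRF2 and MBD1 did not pass the test. In exon reads all 9 genes passed the filter on low counts, and 5 passed the test at an adjusted p under 0.05 (edgeR quasi-likelihood test, Benjamini-Hochberg adjustment over all 13449 genes tested), 2 higher and 3 lower. Across all genes tested, 63.8% passed, 32.3% as higher and 31.5% as lower, so the share of the 9 that passed was no larger than the background. The median log2 fold change of the 9 was 0.03, beside -0.00066 for all genes tested. The wogonin and DMSO libraries did not overlap in 7 of the 9 genes, against 81.9% of all genes. Exon-exon reads, which span a splice junction and so come from spliced RNA, passed for 5 of the 9 genes, 2 higher and 3 lower, against a background of 55.7% called (27.6% higher and 28.0% lower).

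**Figure D1:**
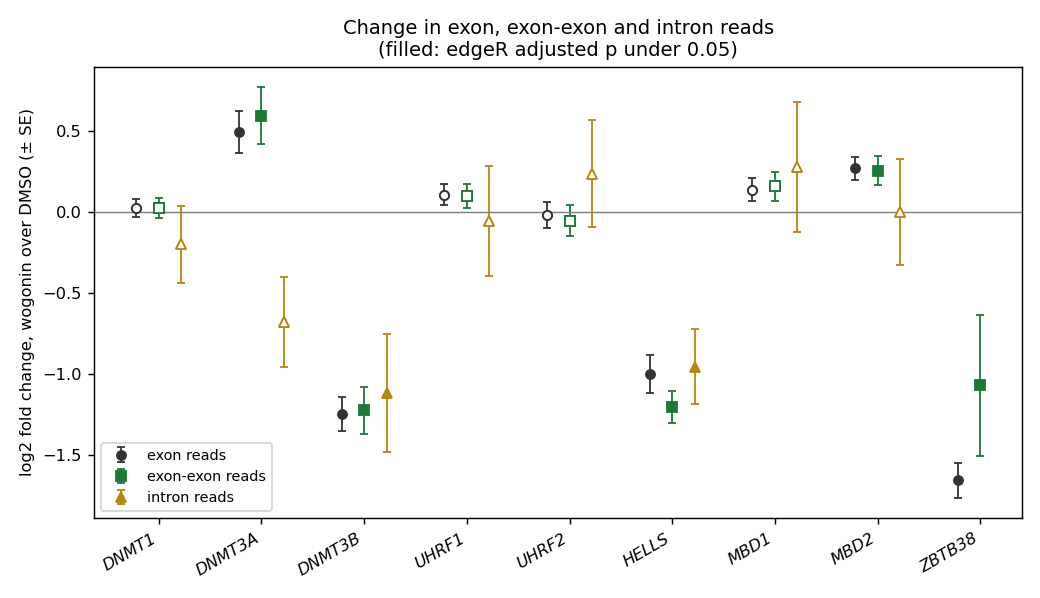
Log2 fold change, wogonin over DMSO, of exon, exon-exon and intron reads for each gene, with bars for the standard error; filled symbols passed the edgeR test at an adjusted p under 0.05. Exon and exon-exon reads lie below zero for DNMT3B, HELLS and ZBTB38 and above it for DNMT3A and MBD2, while for DNMT3A the intron value is -0.68; ZBTB38 had too few intron reads to test.

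Per exon length, the genes spanned a wide range of levels. In wogonin the order by deposited TPM (a level scaled by exon length and library) was UHRF1 (122 ± 0.381, SD, n = 2), DNMT1 (107 ± 3.82), MBD2 (88.1 ± 1.97), MBD1 (49.9 ± 0.311), UHRF2 (23.4 ± 0.301), HELLS (19.7 ± 4.66), DNMT3B (15.2 ± 0.0105), DNMT3A (9.54 ± 0.847) and ZBTB38 (5.64 ± 0.574). In DMSO the first 4 places were the same, with UHRF1 at 125 ± 5.61 TPM, DNMT1 at 115 ± 3.38, MBD2 at 80.5 ± 6.40 and MBD1 at 50.01 ± 1.004. The other places in DMSO went to HELLS (43.2 ± 2.40 TPM), DNMT3B (39.8 ± 2.50), UHRF2 (26.1 ± 1.24), ZBTB38 (19.7 ± 1.70) and DNMT3A (7.45 ± 0.210). The ranges of neighbours in the order did not overlap in wogonin, and in DMSO those of HELLS and DNMT3B did. The first place of UHRF1 rests on total exon reads, of which only 56.9% to 61.7% were uniquely placed. All exon reads of DNMT1 and MBD2 were uniquely placed. An order by uniquely placed reads was not made, so the place of UHRF1 is uncertain. HELLS and DNMT3B stood below UHRF2 in wogonin and above it in DMSO, and ZBTB38 stood below DNMT3A in wogonin and above it in DMSO. TPM depends on the other transcripts in a library, so changes were tested on counts with TMM scaling (trimmed mean of M values) and are given below as CPM, reads scaled to a common library size.

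**Figure D2:**
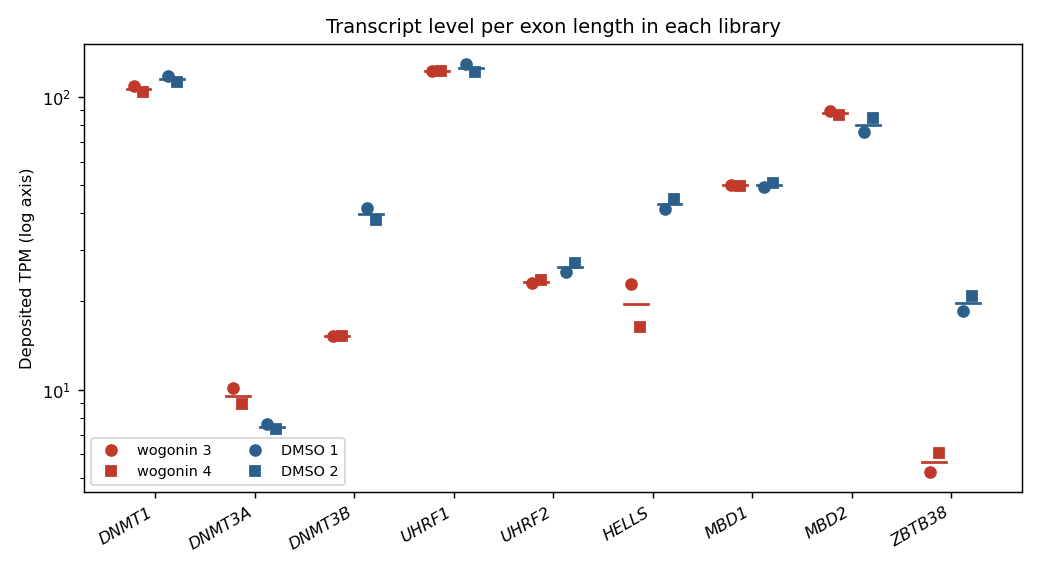
Deposited TPM of each gene in each library on a log axis, wogonin left of DMSO, with a line at the mean of each pair. The pairs lie clearly apart for DNMT3B (15.2 and 15.2 TPM in wogonin, 41.6 and 38.1 in DMSO), HELLS and ZBTB38, and close together for UHRF1 and MBD1.

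Among the de novo methyltransferases, DNMT3B was lower and DNMT3A was higher in treated cells. DNMT3B (ENSG00000088305, GRCh37 chromosome 20, 31350191 to 31397162, plus strand) had 17.6 and 18.6 CPM in wogonin 3 and 4, against 45.5 and 40.8 CPM in DMSO 1 and 2, from 189 and 202 exon reads against 536 and 500. The treated libraries lay close together and far below both vehicle libraries. The log2 fold change was -1.25 ± 0.11 (SE, edgeR adjusted p = 3.9e-08). It lay between -1.34 and -1.19 over 13 alternative runs, among them fits without 1 library, and passed the threshold in every run that kept all libraries. Exon-exon reads of DNMT3B gave -1.23 ± 0.15 (edgeR adjusted p = 4.5e-07), from 84 and 111 reads in wogonin against 268 and 240 in DMSO. All of its exon reads were uniquely placed, and no other row of the table overlaps the gene.

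DNMT3A (ENSG00000119772, chromosome 2, 25455845 to 25565459, minus strand) was the least abundant methyltransferase. It had 17.5 and 16.3 CPM in wogonin 3 and 4, against 12.4 and 11.7 CPM in DMSO 1 and 2, from 188 and 177 exon reads against 146 and 143. The groups did not overlap, and the log2 fold change was 0.49 ± 0.13 (SE, edgeR adjusted p = 0.0036). Exon-exon reads gave 0.60 ± 0.18 (edgeR adjusted p = 0.0070), from 93 and 93 reads in wogonin against 74 and 63 in DMSO. With DESeq2 the exon call was lost (adjusted p = 0.058), as it was when exon and intron reads were summed (log2 fold change 0.21, edgeR adjusted p = 0.17). The exon-exon call was lost with DESeq2 (adjusted p = 0.10) and without DMSO 2 (0.47, edgeR adjusted p = 0.072). The balance of the pair differed between groups: DNMT3B TPM was 1.498 and 1.70 times that of DNMT3A in wogonin 3 and 4, against 5.47 and 5.21 times in DMSO 1 and 2. The accessory factor DNMT3L, which has no catalytic activity and stimulates this pair, had 0 exon reads in both wogonin libraries and in DMSO 2, against 1 read in DMSO 1.

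Of the maintenance factors, HELLS was lower while the methyltransferase DNMT1 and both UHRF genes did not pass. DNMT1 (ENSG00000130816, chromosome 19, 10244021 to 10341962, minus strand) had 269 and 270 CPM in wogonin 3 and 4 (268.9 and 269.6), against 272 and 256 CPM in DMSO 1 and 2. The treated libraries lay between the vehicle libraries. The log2 fold change was 0.03 ± 0.06 (SE, edgeR adjusted p = 0.70), and its sign depended on the scaling: it was -0.065 with library totals alone, where the median of all genes was -0.093. Exon-exon reads made up between 84.7% and 85.4% of the exon reads of DNMT1, the highest share of the 9 genes. S1PR2 overlaps DNMT1 on the same strand and had 26 to 42 exon reads, few beside the 2881 to 3211 of DNMT1.

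UHRF1 (ENSG00000034063, chromosome 19, 4903092 to 4962165, plus strand; listed as a processed transcript in the deposited tables) had 158 and 166 CPM in wogonin 3 and 4, against 157 and 144 CPM in DMSO 1 and 2. The groups did not overlap, but the lowest treated library was close to the highest vehicle library, and the log2 fold change of 0.11 ± 0.06 (SE) did not pass (edgeR adjusted p = 0.15). Between 56.9% and 61.7% of its exon reads were uniquely placed, so its level is uncertain where reads match more than 1 place. UHRF2 (ENSG00000147854, chromosome 9, 6413151 to 6507054, plus strand) had 57.7 and 62.0 CPM in wogonin 3 and 4, against 59.1 and 62.0 CPM in DMSO 1 and 2. The groups overlapped, and its log2 fold change of -0.02 ± 0.08 (SE) did not pass (edgeR adjusted p = 0.86).

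HELLS (ENSG00000119969, chromosome 10, 96305547 to 96373662, plus strand) had 58.2 and 43.8 CPM in wogonin 3 and 4, against 99.1 and 105 CPM in DMSO 1 and 2. Both treated libraries were lower than both vehicle libraries, and they lay further from each other than those of any other of the 9 genes on the log scale. The log2 fold change was -1.001 ± 0.11 (SE, edgeR adjusted p = 3.6e-05), -1.21 without wogonin 3 and -0.81 without wogonin 4. Exon-exon reads, of which nearly all were uniquely placed (299 of 303 in wogonin 3, the lowest share), numbered 303 and 252 in wogonin 3 and 4, against 692 and 735 in DMSO 1 and 2. Their log2 fold change was -1.20 ± 0.10 (SE, edgeR adjusted p = 2.5e-09).

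Genes of DNA replication are classic targets of E2F transcription factors, whose binding motif can be written TTTCCCGC. That string lies in a listed promoter window of HELLS and in that of UHRF1. Whether E2F factors act on these genes was not tested. The only window listed for DNMT3B lacks the string, but it may lie inside the gene, away from its main start, and other starts were not searched. It is called a promoter below only because it is the listed window. That window is shown with those of HELLS and UHRF1 that hold the string. Each is 250 bases before to 50 after a transcript start, 5′ to 3′ on the gene's strand, from RefSeq (GRCh38.p14, not the build of the tables), and capitals mark the string on either strand (GCGGGAAA is its reverse complement).
HELLS promoter, chr10:94545538-94545837, plus strand: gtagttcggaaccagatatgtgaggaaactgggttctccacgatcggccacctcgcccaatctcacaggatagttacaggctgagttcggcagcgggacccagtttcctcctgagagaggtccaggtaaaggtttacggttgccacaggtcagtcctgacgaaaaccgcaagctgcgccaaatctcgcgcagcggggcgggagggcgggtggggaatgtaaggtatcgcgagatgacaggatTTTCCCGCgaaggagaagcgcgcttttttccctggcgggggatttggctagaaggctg
UHRF1 promoter, chr19:4909251-4909550, plus strand: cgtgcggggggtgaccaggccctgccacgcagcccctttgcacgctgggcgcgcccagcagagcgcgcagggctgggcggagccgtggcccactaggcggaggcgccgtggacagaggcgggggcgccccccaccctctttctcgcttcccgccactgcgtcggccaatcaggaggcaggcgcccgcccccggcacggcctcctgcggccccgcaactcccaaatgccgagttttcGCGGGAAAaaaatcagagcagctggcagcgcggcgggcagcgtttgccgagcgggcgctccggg
DNMT3B promoter, chr20:32779602-32779901, plus strand: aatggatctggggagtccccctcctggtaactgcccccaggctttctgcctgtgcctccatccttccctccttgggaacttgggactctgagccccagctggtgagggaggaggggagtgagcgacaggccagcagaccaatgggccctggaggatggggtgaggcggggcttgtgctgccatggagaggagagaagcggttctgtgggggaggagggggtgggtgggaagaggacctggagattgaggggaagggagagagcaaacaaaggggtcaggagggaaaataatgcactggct

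The string begins 8 bases before the listed start in HELLS and 14 bases before it in the first of 3 windows listed for UHRF1. It was found in 2 of the 9 genes, against 1.98% of the 27305 genes in the table (1.63% of its 35116 windows). Some genes list several windows, among them ZBTB38 with 10 and DNMT3A with 6. The string itself holds a CpG, and windows differ in CpG sites, so these shares are not like for like. Enrichment was not tested. The HELLS window holds 22 CpG sites and this UHRF1 window 36, against a median of 14 over all windows. The window listed for DNMT3B holds 3, and 18.2% of all windows hold fewer. Neither that count nor the lack of the string can be read as a trait of the main DNMT3B start. These matches describe the sequence only.

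Of the readers, ZBTB38 was lower, MBD2 was higher and MBD1 did not pass. ZBTB38 (ENSG00000177311, chromosome 3, 141043055 to 141168634, plus strand) had 18.0 and 21.9 CPM in wogonin 3 and 4, against 59.9 and 66.3 CPM in DMSO 1 and 2, from 193 and 238 exon reads against 706 and 813. The groups lay far apart. Its log2 fold change was -1.66 ± 0.11 (SE, edgeR adjusted p = 2.1e-09), the largest change of the 9 genes. It lay between -1.81 and -1.52 over 13 alternative runs, among them fits without 1 library, and passed the threshold in every run that kept all libraries. Only 3.62% of all genes tested had a lower log2 fold change. The antisense gene RP11-438D8.2 overlaps it and had 0 exon reads in all libraries. Few ZBTB38 exon reads spanned a junction, between 1.97% and 5.04%. There were 8 and 12 such reads in wogonin against 31 and 16 in DMSO, which gave a log2 value of -1.07 ± 0.43 (SE) for the change (edgeR adjusted p = 0.042). That call was lost with DESeq2, with limma-voom and without DMSO 1, wogonin 3 or wogonin 4, where the value ranged from -0.49 without DMSO 1 to -1.35 without wogonin 4.

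MBD2 (ENSG00000134046, chromosome 18, 51679079 to 51751158, minus strand) had 106 and 108 CPM in wogonin 3 and 4, against 84.3 and 92.5 CPM in DMSO 1 and 2. The groups did not overlap. The log2 fold change was 0.27 ± 0.07 (SE, edgeR adjusted p = 0.0035), and the call was lost without DMSO 1 (0.19, edgeR adjusted p = 0.078). In exon-exon reads the log2 fold change was 0.26 ± 0.09 (SE, edgeR adjusted p = 0.022), a call lost in 5 of 12 alternatives, and without DMSO 1 it was 0.11. MBD1 (ENSG00000141644, chromosome 18, 47793252 to 47808144, minus strand) had 84.7 and 88.6 CPM in wogonin 3 and 4, against 78.4 and 79.0 CPM in DMSO 1 and 2. Its groups did not overlap, but the log2 fold change of 0.14 ± 0.07 (SE) did not pass (edgeR adjusted p = 0.10). ZBTB38 TPM was 0.0585 and 0.0698 times that of MBD2 in wogonin 3 and 4, against 0.244 and 0.246 times in DMSO 1 and 2.

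Intron reads come largely from unspliced RNA and were far fewer. Of the 9 genes, 8 passed the filter, and ZBTB38, with 4 to 8 intron reads, did not. Of these 8, DNMT3B and HELLS were lower, against a background of 20.1% of 10495 genes called (11.3% higher and 8.82% lower, or 9.47% and 11.3% with upper-quartile scaling). That background was 9.47% in either direction with DESeq2, 5.70% without DMSO 1, 6.40% without DMSO 2, 31.7% without wogonin 3 and 35.2% without wogonin 4. DNMT3B had 21 and 17 intron reads in wogonin 3 and 4, against 27 and 40 in DMSO 1 and 2, which gave -1.12 ± 0.37 (SE) as the log2 fold change (edgeR adjusted p = 0.042). That call was lost with DESeq2, with limma-voom and without DMSO 1 (-1.36) or DMSO 2 (-0.84).

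For HELLS the answer depended on which intron reads were counted. All intron reads numbered 447 and 297 in wogonin 3 and 4, against 521 and 638 in DMSO 1 and 2, which gave -0.96 ± 0.23 (SE) as the log2 fold change (edgeR adjusted p = 0.0090). That call was lost without DMSO 1 (-1.09, edgeR adjusted p = 0.16) or DMSO 2 (-0.84, edgeR adjusted p = 0.32). RP11-119K6.6, a transcript within HELLS on the same strand, had at most 15 intron reads of its own. Most HELLS intron reads matched more than 1 place in the genome. Uniquely placed intron reads numbered 79 and 34 in wogonin 3 and 4, against 22 and 33 in DMSO 1 and 2, a log2 fold change of 0.67 that did not pass (edgeR adjusted p = 0.18). They were 13.7% and 8.35% of the gene's uniquely placed reads in wogonin 3 and 4, against 2.23% and 3.06% in DMSO 1 and 2. Both treated libraries were higher in this share, wogonin 3 the more so, the library that also had the high intron share over all genes.

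Whether intron and exon reads changed by different amounts was tested in a model of both kinds of read with library as a block. Of 8 genes tested, 1 passed, DNMT3A, against a background of 10.7% of 9475 genes called (5.76% with intron reads up relative to exon reads and 4.95% down, or 6.87% and 3.89% with library totals alone). Here the background was 2.21% without DMSO 1, 2.44% without DMSO 2, 22.5% without wogonin 3 and 27.1% without wogonin 4. DNMT3A had 75 and 45 intron reads in wogonin 3 and 4, against 79 and 74 in DMSO 1 and 2, while its exon reads were higher. Introns held 28.5% and 20.3% of its reads in wogonin 3 and 4, against 35.1% and 34.1% in DMSO 1 and 2, in each library the highest share among the 9 genes when uniquely placed reads are counted. The log2 difference between the intron and exon changes was -1.18 ± 0.30 (SE, edgeR adjusted p = 0.021), but the call was lost without DMSO 1 (-1.15, adjusted p = 0.29) or DMSO 2 (-1.21, adjusted p = 0.24). Intron reads alone gave DNMT3A -0.68 ± 0.28 (SE), which did not pass (edgeR adjusted p = 0.10). The value was -0.76 without wogonin 3 and -0.65 without wogonin 4, fits whose spread comes from the DMSO pair alone. For HELLS the difference was 0.06 ± 0.24 in all reads (edgeR adjusted p = 0.91) and 1.70 in uniquely placed reads (edgeR adjusted p = 0.0033). In uniquely placed reads it was 1.58 without wogonin 3, 1.71 without wogonin 4 and 1.95 without DMSO 2. Without DMSO 1 it was 1.47, and the call was lost. Each of these values for HELLS and DNMT3A is relative to the intron reads of all genes, scaled apart from exon reads.

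**Figure D3:**
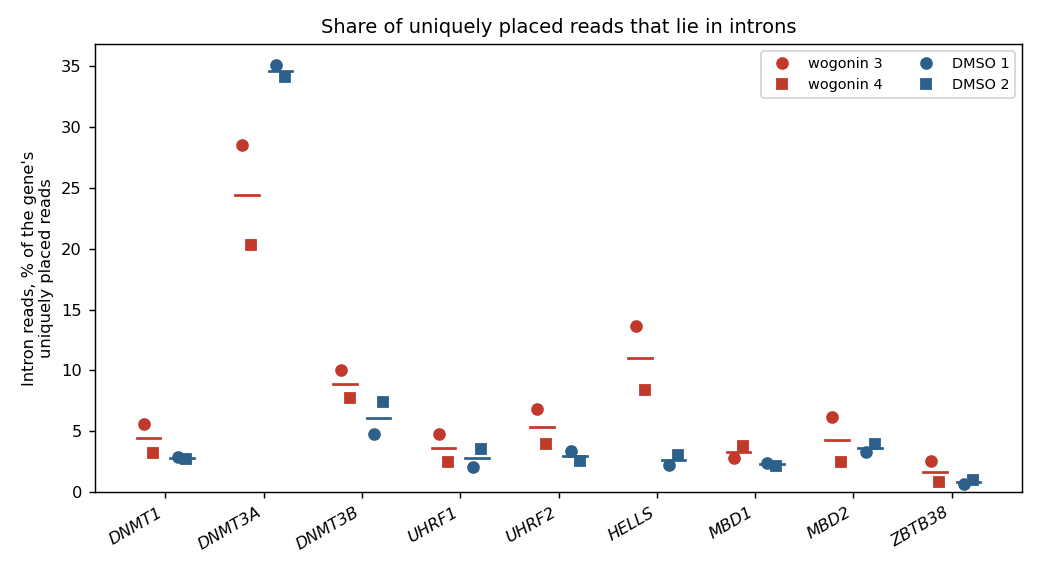
Share of each gene's uniquely placed reads that lie in introns, in percent, by library, wogonin left of DMSO, with a line at the mean of each pair. DNMT3A is lower in both wogonin libraries (28.5% and 20.3%) than in both DMSO libraries (35.1% and 34.1%), and HELLS is higher (13.7% and 8.35% against 2.23% and 3.06%).

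Genes that work beside these were examined in 6 lists. Of 11 other methyl-CpG readers and related proteins, all tested, 2 were higher, 2 lower and 7 did not pass, and the median log2 fold change was 0.03. BAZ2A, a subunit of the complex that silences ribosomal DNA, averaged 415 ± 9.11 CPM in wogonin and 258 ± 6.66 CPM in DMSO (SD, n = 2 each), and the log2 fold change was 0.68 (edgeR adjusted p = 2.3e-08). BAZ2B, its relative, fell by 0.66 on the log2 scale, and SETDB2, which carries a methyl-CpG-binding domain beside a histone methyltransferase domain, fell by 0.83. Of 15 partners of the methyltransferases, 14 were tested: 2 were higher, 6 lower and 6 did not pass, with a median of -0.11. USP7, a deubiquitinase that stabilises DNMT1 and UHRF1, rose by 0.37 on the log2 scale (edgeR adjusted p = 3.7e-05). NSD1, which lays down the histone mark that guides DNMT3A between genes, fell by 0.44, and the DNA ligase LIG1, a binding partner of UHRF1, fell by 0.59.

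NuRD is the remodelling and deacetylase complex that MBD2 brings to methylated DNA. Of its 11 subunit genes, all tested, 3 were higher, 3 lower and 5 did not pass, with a median of -0.03. The remodelling ATPase CHD4 averaged 307 ± 11.7 CPM in wogonin and 450 ± 13.7 CPM in DMSO (SD, n = 2 each), and the log2 fold change was -0.55 (edgeR adjusted p = 3.1e-07). GATAD2A rose by 0.44 and the deacetylase HDAC1 by 0.28. In the cycle that makes S-adenosylmethionine, the methyl donor of all DNMT enzymes, 9 of 11 genes were tested: 5 were higher, 2 lower and 2 did not pass, with a median of 0.31. Methionine synthase, MTR, averaged 55.9 ± 4.16 CPM in wogonin and 113 ± 1.12 CPM in DMSO, and the log2 fold change was -1.01 (edgeR adjusted p = 1.0e-08). Its reactivating enzyme MTRR rose by 0.83 on the log2 scale, and AHCYL2, related to the hydrolase that clears the product of methyl transfer, rose by 1.17.

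Of 19 S-phase genes, all tested, 10 were higher, 6 lower and 3 did not pass, with a median of 0.28. FEN1, a nuclease of lagging-strand synthesis, rose by 1.01 and MCM4, part of the replicative helicase, by 0.77, while RRM2, a ribonucleotide reductase subunit, fell by 1.02. In human cells ZBTB38 is known to repress MCM10, a replication factor, and to be degraded through the ubiquitin ligase RBBP6. MCM10 averaged 85.5 ± 0.478 CPM in wogonin and 52.2 ± 0.969 CPM in DMSO (SD, n = 2 each), and the log2 fold change was 0.71 (edgeR adjusted p = 4.7e-07). RBBP6 averaged 163 ± 3.24 CPM in wogonin and 119 ± 3.55 CPM in DMSO, and the log2 fold change was 0.46 (edgeR adjusted p = 7.8e-06). Whether these rises are linked to the lower ZBTB38 RNA was not tested, and ZBTB38 protein was not measured. MCM10 and RBBP6 were not counted among the 19 S-phase genes. For each list, the shares that passed are to be read beside the 63.8% of all genes that did.

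**Figure D4:**
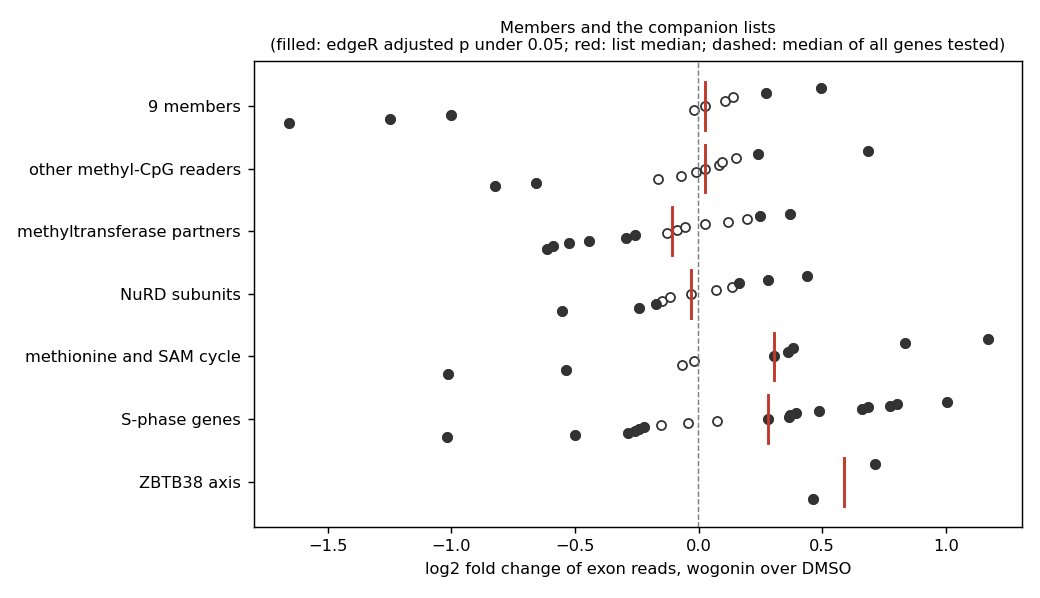
Log2 fold change of exon reads, wogonin over DMSO, for the 9 genes and the tested genes of the 6 companion lists; filled points passed the edgeR test at an adjusted p under 0.05, the red line is the list's median and the dashed line the median of all genes tested. ZBTB38, DNMT3B and HELLS lie at or below -1.001, and in every list but the pair beside ZBTB38 (MCM10 and RBBP6) points lie on both sides of zero.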

How the data were processed

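For each of the 4 libraries the authors deposited 1 table of 57773 genes with counts of reads per gene in exons, in introns and across exon-exon junctions, total and uniquely placed, per the file headers. It also holds TPM and RPKM values and fractions of unique and of intron reads that the authors computed, per the file headers. Builds GRCh37 and hg19 are named in the submitters' processing notes; no aligner, counting program or strand setting is named there or in the labels. TPM gave levels per length; RPKM and the fractions were not used.

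The main test was the robust quasi-likelihood fit of edgeR 4.0.16 (R 4.3.3) after filterByExpr and TMM scaling, 2-sided and run separately for total exon, intron and exon-exon counts, with Benjamini-Hochberg adjustment over all genes tested. The 20986 genes listed without exons were left out of intron tests. The intron and exon changes were compared by an interaction term over both kinds of count. DESeq2 1.42.0, limma-voom (limma 3.58.1), other scalings, filters and count columns, and leaving out each library were alternatives. Leaving out 1 library keeps 1 in its group, so the spread then comes from the other group alone, and calls in such fits add no support. With 2 libraries a group, the smallest p of an exact permutation test is 0.333. At this depth 3 counts were worth 0.253 to 0.273 CPM; such floors cover counting error only. The exon test and the comparison of intron with exon changes were run on simulated counts. There fewer genes were changed than were called in the data, and intron counts had a smaller spread. Those runs therefore do not show how the tests behave on these libraries. The 9 genes and the 6 lists were chosen with earlier results of these data known. The text names all 9 genes and, from each list, the 3 tested genes of smallest adjusted p (both genes of the pair beside ZBTB38); DNMT3L was added after its values were seen.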

Additional observations from a re-analysis of the deposited data

How the results depend on the processing

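The exon changes of DNMT3B, HELLS and ZBTB38 and the exon-exon changes of DNMT3B and HELLS kept their direction in every alternative run. Their calls kept their side of the threshold in every run that kept all libraries. Leaving out 1 library gave 7158 to 8166 called genes in exon reads, 5483 to 5736 in exon-exon reads, 653 to 4008 in intron reads (2113 with all libraries) and 227 to 2768 for the difference between intron and exon changes (1015 with all), with the low counts without DMSO 1 (653 and 227) or DMSO 2 (730 and 250) and the high ones without wogonin 3 (3572 and 2279) or wogonin 4 (4008 and 2768). DESeq2 called 994 genes in intron reads. With upper-quartile scaling or with library totals alone, exon log2 fold changes moved with the median of all genes, which was -0.093 in both.

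Some values changed sign, and of these only that of HELLS introns had passed the test: it was -0.96 (edgeR adjusted p = 0.0090) in all reads and 0.67 in uniquely placed reads, while most HELLS intron reads matched several places. For DNMT1 the values were -0.065 in exon reads with either of those scalings, -0.039 in gene reads, and -0.056 and -0.059 in exon-exon reads with library totals and upper-quartile scaling. In uniquely placed reads the value was 0.21 for DNMT1 introns and 0.18 for its intron difference. For MBD2 introns it was -0.035 with size factors of the DESeq2 kind, -0.12 with upper-quartile scaling, -0.0096 with a mean of at least 10 counts, -0.047 with DESeq2, -0.022 with limma-voom and -0.011 in unique reads. Leaving out 1 library gave -0.022 to 0.056 for DNMT1 and -0.075 to 0.039 for UHRF2 in exon reads, and -0.013 to 0.071 and -0.13 to 0.047 in exon-exon reads. In intron reads it gave -0.34 to 0.27 for UHRF1, -0.38 to 0.79 for MBD1 and -0.43 to 0.24 for MBD2. For the intron difference it gave -0.18 to 0.48 for DNMT3B, -0.50 to 0.23 for UHRF1, -0.0095 to 0.42 for UHRF2, -0.18 to 0.26 for HELLS and -0.49 to 0.61 for MBD1. The cause of these changes was not tested. The fits of uniquely placed HELLS reads without each library were chosen after seeing the data. No paired analysis was possible because the groups share no replicate number.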
